A study of Mus musculus with 246 samples.

Results

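Neuropeptides are short signalling molecules cut from larger precursor proteins. The precursors are sorted into dense-core secretory granules, cleaved by prohormone convertases and released on strong or repeated firing, and the products act on G protein-coupled receptors over longer times and distances than classical transmitters. Many precursors are made by a single neuron class, so that a precursor transcript in bulk tissue reports both how many such neurons a sample holds and how much each one makes. Fewer cells of a type and less RNA per cell cannot be told apart in these data.

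A list of 35 neuropeptide and granin precursor genes was followed through 6 brain regions. Members were chosen by gene symbol, and a member was kept when its estimated counts summed to at least 100 over all libraries. Of the 35 genes, 32 were kept out of 56691 genes in the table. Nmu, the neuromedin U precursor, had a summed count of 98. Rln3, the relaxin-3 precursor, had 97 and Npvf, the RFamide-related peptide precursor, had 79, and these 3 genes are not described further.

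RNA was sequenced from tissue punches of adult male CD1 mice, an outbred stock, with 41 mice and 1 library per mouse and region. Punches came from 2 frontal areas, the medial prefrontal (mPFC) and the anterior cingulate (ACC) cortex, and from the accumbens shell (Nacc). They also came from the amygdala's basolateral part (BLA), the thalamus at its dorsomedial part (DMT) and the hippocampus at its ventral end (vHipp). Ctrl_Veh mice were reared under standard conditions by dams that received an empty gel. ELA_Veh mice experienced early life adversity, in which the cage held limited bedding and nesting material from postnatal day 2 to 9, and their dams received the empty gel. ELA_SAFit2 mice had the same adversity, and their dams received a subcutaneous slow-release gel with SAFit2, an inhibitor of the stress-related co-chaperone FKBP51 that reached the pups through the milk. In the NoInteraction set there were 7 mice per condition. In the SocialInteraction set, which met an unfamiliar mouse for 10 min, there were 6 Ctrl_Veh, 7 ELA_Veh and 7 ELA_SAFit2 mice. Total counts per library lay between 20804219 and 43351397.

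Levels are given as CPM, a library's counts scaled to its total, after TMM scaling over all libraries. They are not divided by gene length unless stated, so that they compare samples and not genes. In the Nacc, 12 libraries carried the mouse-specific expression of another mouse than the labelled one, 6 in each set, and for 8 of them that mouse was in the other set. No library of the other 5 regions did so. Nacc values by condition are therefore given for libraries under their labels, and fits without those 12 libraries are named where they change a result. Summed tissue markers differed between the labelled regions. Striatal markers had a median of 2640 CPM in the Nacc against 57.6 CPM in the DMT. Thalamic markers had a median of 3104 CPM in the DMT against 93.5 CPM in the mPFC. Amygdala markers had a median of 733 CPM in the BLA and at most 238 CPM elsewhere. Hippocampal markers had a median of 469 CPM in the vHipp and at most 274 CPM elsewhere. Pyramidal cell markers had medians of 2137 CPM in the ACC, 1833 in the mPFC and 1612 in the vHipp. In the BLA, striatal markers had a median of 1033 CPM. Their range there, 398 to 2689 CPM, overlapped with that in the Nacc, 941 to 3601 CPM. BLA punches also held markers of the choroid plexus, with a median of 2536 CPM and a range of 22.0 to 5454 CPM.

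Regions were compared within mice as labelled. The edgeR quasi-likelihood test set each region against the mean of the other 5 with the mouse as a block, and a gene was called with a Benjamini-Hochberg adjusted p below 0.05 and a change of at least 2-fold. Of the 32 members, 24 were called in at least 1 region and 75 of 192 pairs of member and region were called. In the Nacc, 17 members were called (53.1%), beside 9.36% of all 17381 genes tested. In the DMT, 14 members were called (43.8%), beside 18.4% of all genes. In the ACC, BLA and vHipp, 12 members were called in each (37.5%), beside 8.0%, 8.39% and 10.9% of all genes. In the mPFC, 8 members were called (25%), beside 7.34%. Of these, 5 were higher and 3 lower, beside 3.21% and 4.13% of all genes. The direction differed between regions. In the BLA, 11 members were higher and 1 was lower, beside 6.6% and 1.79% of all genes. In the DMT, 3 were higher and 11 lower, beside 8.82% and 9.59%. In the Nacc, 12 were higher and 5 lower, beside 4.5% and 4.86%. In the vHipp, 3 were higher and 9 lower, beside 5.36% and 5.59%.

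**Figure D1:**
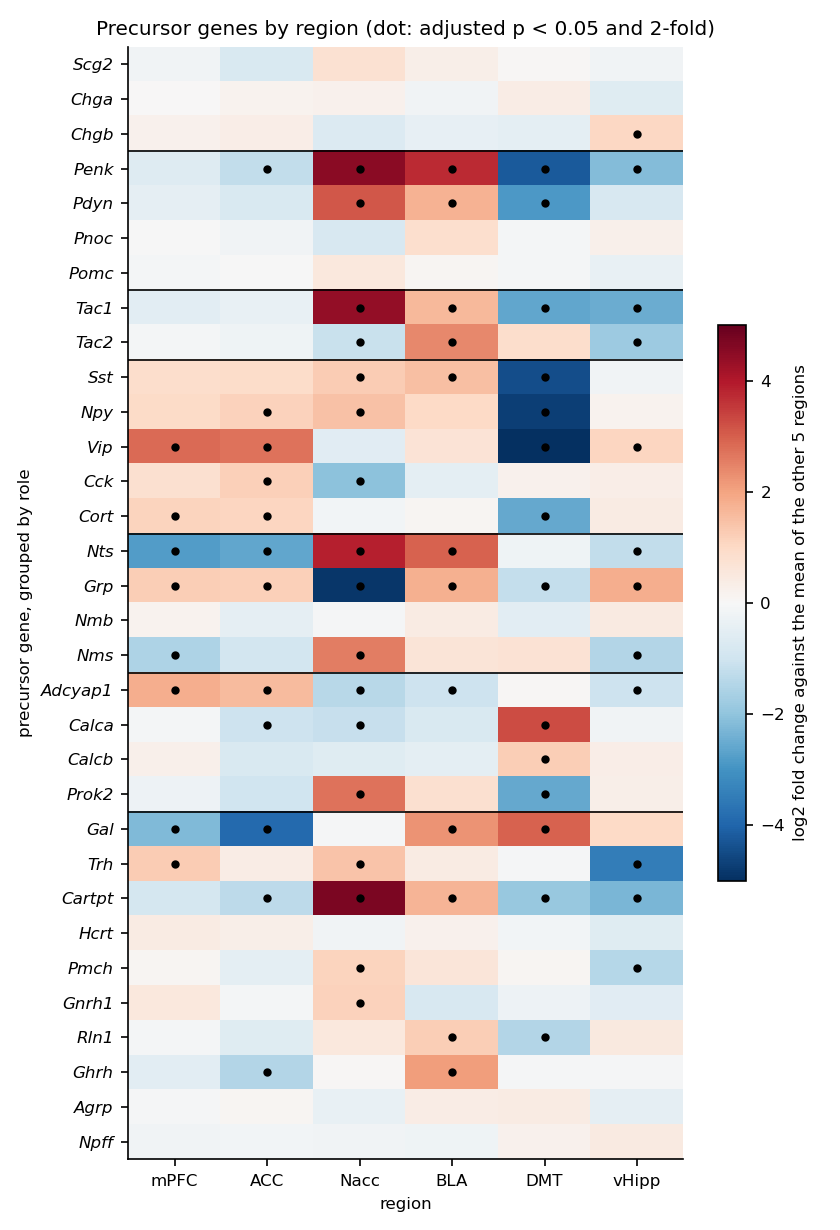
Log2 fold change of each of the 32 precursor genes (rows, grouped by role with lines between the groups) in each region (columns) against the mean of the other 5 regions, on a colour scale that ends at −5 and 5. Black dots mark the 75 called pairs. Penk, Pdyn, Tac1, Nts and Cartpt are dark red in the Nacc and lighter red in the BLA, and the interneuron peptides Sst, Npy and Vip are dark blue in the DMT.

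Of the opioid precursors, Penk and Pdyn were called in several regions. Penk, which encodes the enkephalins, ran from 429 to 1209 CPM in the Nacc with a median of 967. In the BLA its lowest, median and highest values were 239, 580 and 1029 CPM. The vHipp values, 11 to 28.5 CPM, and the DMT values, 1.3 to 23.8 CPM, did not overlap with either. The log2 fold change of Penk was 4.51 ± 0.09 (SE) in the Nacc, 3.74 ± 0.09 in the BLA and −4.20 ± 0.16 in the DMT. Pdyn, which encodes the dynorphins, had a median of 223 CPM in the Nacc, 93.5 in the BLA and 4.6 in the DMT, with log2 fold changes of 3.12 ± 0.08, 1.74 ± 0.09 and −2.88 ± 0.13. Pnoc, the nociceptin precursor, was called in no region, with its highest median of 9.65 CPM in the BLA and its lowest of 3.75 CPM in the Nacc. Pomc, the precursor of beta-endorphin and the melanocortins, had medians between 0.744 and 1.06 CPM in all 6 regions and was also called in none.

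Per kilobase of exon, Penk ranked highest among the 32 members in the Nacc and in the BLA, with medians of 592 and 355 CPM per kilobase. In the DMT, Cck ranked highest at 115 CPM per kilobase, and in the vHipp Chgb did so at 241 CPM per kilobase. In the mPFC and ACC, Sst and Cck led, at 205 and 159 CPM per kilobase in the mPFC and 210 and 200 in the ACC.

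The tachykinins separated from each other. Tac1, which encodes substance P and neurokinin A and marks striatal projection neurons of the direct pathway, had a median of 213 CPM in the Nacc. The BLA followed at 37.9 CPM, then the ACC at 11.5, the mPFC at 9.11, the vHipp at 3.69 and the DMT at 3.24 CPM. Its log2 fold change was 4.38 ± 0.08 in the Nacc and −2.50 ± 0.13 in the vHipp. Tac2, which encodes neurokinin B, was instead highest in the BLA at a median of 26.6 CPM (log2 fold change 2.39 ± 0.10) and lower in the Nacc at 3.62 CPM (−1.13 ± 0.14). In the DMT, Tac2 spanned 0.159 to 55.3 CPM around a median of 10.6, the widest relative spread of any member with a median of at least 0.5 CPM in any region (SD within groups of 1.63 on the log2 scale).

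**Figure D2:**
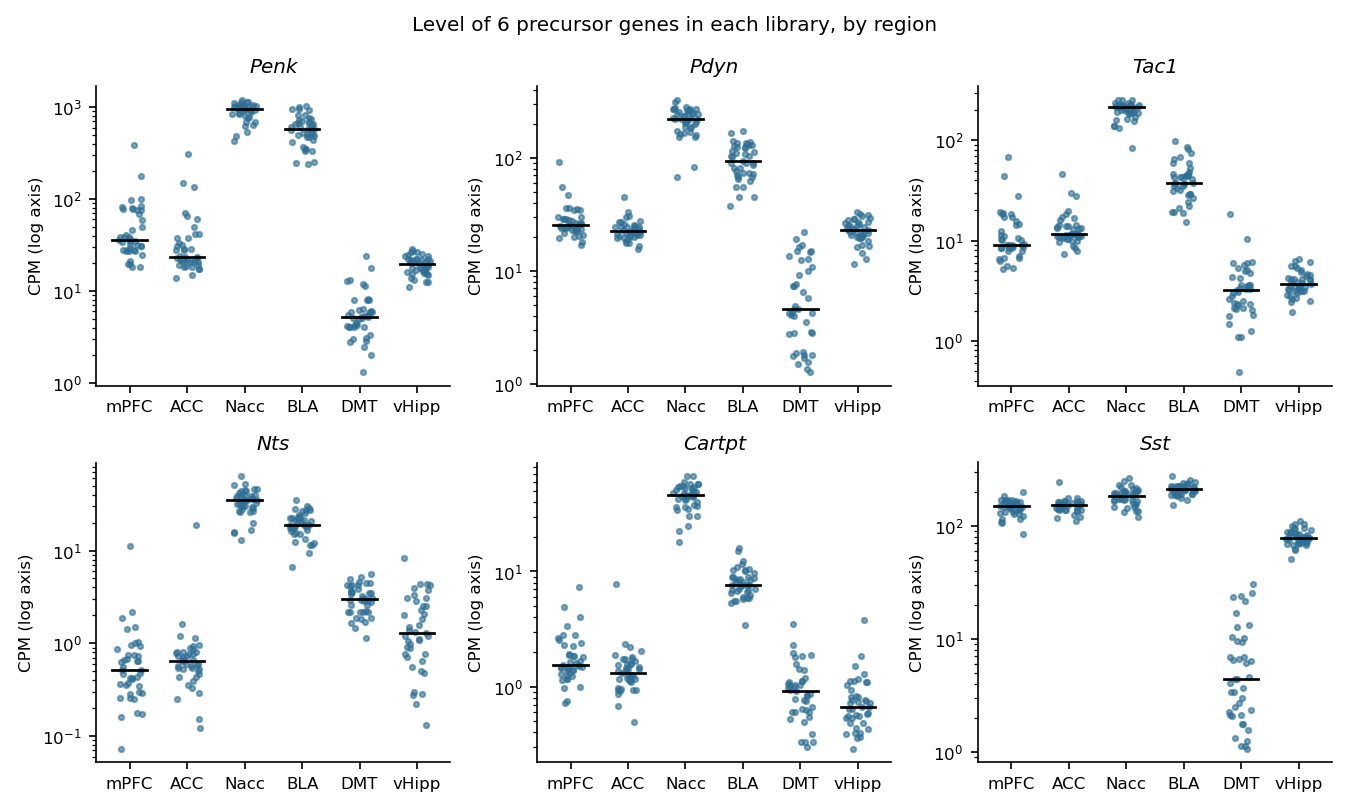
CPM of Penk, Pdyn, Tac1, Nts, Cartpt and Sst in each of the 41 libraries per region (points, log axis) with the median as a bar. The Nacc points lie highest for Penk, Pdyn, Tac1, Nts and Cartpt, and single mPFC and ACC libraries stand far above their medians for Penk, at up to 390 CPM and 311 CPM.

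The peptides of cortical interneurons Sst, Npy, Vip and Cort were called lower in the DMT, and their higher values were spread over the other 5 regions. Sst, the somatostatin precursor, had medians of 209 CPM in the BLA, 184 in the Nacc, 151 in the ACC, 148 in the mPFC and 78.2 in the vHipp, against 4.39 in the DMT (log2 fold change −4.42 ± 0.12). Npy, the neuropeptide Y precursor, which many Sst neurons also make, had its highest median of 57 CPM in the Nacc and its lowest of 1.53 CPM in the DMT (log2 fold change −4.70 ± 0.06 there). Vip, made by disinhibitory interneurons, was a cortical gene here, with medians of 42.4 CPM in the mPFC and 39.6 in the ACC, 15.2 in the vHipp and 0.101 in the DMT. Its log2 fold changes were 2.83 ± 0.08, 2.73 ± 0.08, 1.07 ± 0.10 and −6.75 ± 0.18. Cort, the cortistatin precursor, was called higher in the mPFC and ACC (1.13 ± 0.06 and 1.06 ± 0.06) and lower in the DMT (−2.55 ± 0.08). Cck, the cholecystokinin precursor, which pyramidal and thalamic neurons also make, was called higher in the ACC (1.17 ± 0.09) and lower in the Nacc (−2.05 ± 0.11), and its medians were 150 CPM in the DMT and 154 CPM in the vHipp.

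Of the bombesin, neurotensin and neuromedin peptides, Nts and Grp ran in opposite directions in the Nacc. Nts, the neurotensin precursor, had medians of 35.0 CPM in the Nacc and 19.1 in the BLA and of 0.518 and 0.640 CPM in the mPFC and ACC (log2 fold changes 3.89 ± 0.10, 2.95 ± 0.11, −2.79 ± 0.17 and −2.61 ± 0.17). Grp, the gastrin-releasing peptide precursor, had medians of 12.3 CPM in the vHipp and 11.8 in the BLA and 0.208 in the Nacc, where its log2 fold change was −4.85 ± 0.13. The highest Nacc value of Grp, 1.34 CPM, lay below the lowest BLA value, 3.70 CPM. Nmb, the neuromedin B precursor, was called in no region. Nms, the neuromedin S precursor, was called higher in the Nacc (2.55 ± 0.19) at a median of only 0.104 CPM. Its lower calls in the mPFC and vHipp fell under the 2-fold minimum by limma-voom, at −0.999 and −0.75, as did the mPFC call in SocialInteraction mice alone, at −0.91 (edgeR adjusted p = 0.123). The lower vHipp call of Nts did so in NoInteraction mice alone, at −0.93.

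Among the other secreted peptides, Adcyap1, the precursor of PACAP, was called higher in the mPFC (1.82 ± 0.09) and ACC (1.56 ± 0.09) and lower in the Nacc, BLA and vHipp. Some of the lower calls lay at the 2-fold minimum. The BLA value of Adcyap1 was −0.988 by limma-voom and −0.985 without the libraries that carried markers of a neighbouring tissue, which are described after the regional values, and its vHipp value was −0.992 in NoInteraction mice alone. Calca, the calcitonin gene-related peptide precursor, was called higher in the DMT (3.26 ± 0.10), at a median of 7.75 CPM with a range of 1.25 to 17.8. Its lower call in the ACC was −0.98 by limma-voom and −0.87 in NoInteraction mice alone, under the minimum. Its paralogue Calcb followed at a much lower level (1.23 ± 0.15, median 0.219 CPM), and reads that the copies share could have been split between them. Prok2, the prokineticin 2 precursor, was called higher in the Nacc (2.72 ± 0.10) and lower in the DMT (−2.56 ± 0.16).

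Peptides best known from the hypothalamus and brainstem covered a wide range of levels. Cartpt, the precursor of CART peptides, had a median of 45.7 CPM in the Nacc (log2 fold change 4.70 ± 0.07) and 7.68 in the BLA (1.69 ± 0.08), and at most 1.54 in the other regions. Gal, the galanin precursor, was called higher in the DMT (2.95 ± 0.14, median 3.19 CPM) and BLA (2.25 ± 0.15, median 2.43 CPM) and lower in the ACC (−3.90 ± 0.27, median 0.0387 CPM). Trh, the thyrotropin-releasing hormone precursor, was called lower in the vHipp (−3.44 ± 0.18, median 0.213 CPM) and higher in the Nacc (1.44 ± 0.11) and mPFC (1.26 ± 0.12). Without the libraries that carried markers of a neighbouring tissue, the mPFC value of Trh was 0.55, under the 2-fold minimum. Hcrt, Agrp, Ghrh and Pmch, which encode orexin, agouti-related peptide, growth hormone-releasing hormone and melanin-concentrating hormone, had medians of at most 0.248 CPM in each region. Of these, Hcrt and Agrp were called in no region, Ghrh was called higher in the BLA (2.10 ± 0.18) and Pmch higher in the Nacc (1.12 ± 0.13, but 0.97 in NoInteraction mice alone), each from few reads per library. Gnrh1, the gonadotropin-releasing hormone precursor, was called higher in the Nacc (1.16 ± 0.15, median 0.236 CPM), and fell under the 2-fold minimum by limma-voom at 0.945. Rln1, a relaxin precursor, was called higher in the BLA (1.22 ± 0.09, median 0.688 CPM) and lower in the DMT (−1.48 ± 0.12). Npff, the neuropeptide FF precursor, had medians between 0.799 and 1.23 CPM and was called in no region. Summed markers of the hypothalamus had medians between 0.475 and 7.87 CPM, and Sim1, Six6 and Hmx2 had a median of 0 in the mPFC, ACC and Nacc.

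The granins, acidic proteins that fill dense-core granules and are themselves cut into peptides, were the most even group. Chga, chromogranin A, ranged from a median of 115 CPM in the vHipp to 198 CPM in the DMT. Scg2, secretogranin II and the precursor of secretoneurin, ranged from 177 CPM in the ACC to 443 CPM in the Nacc. Neither gene was called in a region. Chgb, chromogranin B, was called higher in the vHipp (1.03 ± 0.03), where its values of 446 to 953 CPM overlapped with those of the ACC, 363 to 598 CPM.

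Receptors for these peptides and the enzymes that process them were taken from separate lists. Of 41 neuropeptide receptor genes tested, 12 were called higher and 1 lower in the BLA (29.3% and 2.44%), where 6.6% and 1.79% of all genes were. In the Nacc, 12 and 3 were called (29.3% and 7.32%), beside 4.5% and 4.86% of all genes, and in the DMT 11 and 15 (26.8% and 36.6%), beside 8.82% and 9.59%. In the ACC, 6 were higher and 14 lower (14.6% and 34.1%), beside 3.49% and 4.51%. In the vHipp, 5 were higher and 11 lower (12.2% and 26.8%), beside 5.36% and 5.59%, and in the mPFC 5 were higher and 5 lower (12.2% each), beside 3.21% and 4.13%. In the Nacc, the 3 largest were the cholecystokinin receptor Cckar (3.53), Npffr2 (3.49) and the somatostatin receptor Sstr5 (2.94). In the DMT the delta opioid receptor Oprd1 was −5.29 and the cholecystokinin receptor Cckbr −5.03, while the galanin receptor Galr1 was 4.09. Cckbr was 2.94 in the mPFC and 2.78 in the ACC. Of 17 processing and granule genes, 1 was called in each of the mPFC, ACC and BLA (5.88%), beside 7.34%, 8.0% and 8.39% of all genes. In the DMT 2 were called, both lower (11.8%), beside 9.59% of all genes called lower. In the Nacc and vHipp 0 were called, beside 9.36% and 10.9%. The prohormone convertase Pcsk1 was called higher in the mPFC (1.10) and ACC (1.04) and lower in the DMT (−1.02). Cadps2 was called lower in the DMT (−1.35) and Pcsk5 lower in the BLA (−1.04).

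Pairs of regions were also compared directly, within mice as labelled. Between the mPFC and ACC, 1 member of 32 was called (3.12%), beside 1.5% of all genes, Gal at 1.42 ± 0.38 (mPFC minus ACC, log2). Its medians were 0.0979 CPM in the mPFC and 0.0387 CPM in the ACC, with 4 and 14 libraries of 41 at 0. This call therefore rests on few reads per library. Between the Nacc and BLA, 13 were called (40.6%), beside 9.03% of all genes. Tac1 (2.31 ± 0.12) and Cartpt (2.51 ± 0.10) were higher in the Nacc, and Grp (−5.52 ± 0.15) and Tac2 (−2.93 ± 0.17) were higher in the BLA, while Penk differed by 0.64 ± 0.14.

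Within a region the mice differed, and for many members that spread followed genes that mark neighbouring tissue or another cell type. Correlations of log2(CPM + 0.5) with the summed markers were computed for 1862 combinations of member, region and marker list over 41 mice each, with 616 at an adjusted permutation p under 0.05. Gene and markers share a library, so that depth and tissue makeup enter both. The same count was not made for genes outside the list, so that it is not particular to the precursors. Tac2 in the DMT followed markers of the habenula, which borders the medial thalamus (Pearson r = 0.961, Spearman rho = 0.955, both with a permutation p of 1e-05, the smallest that the permutations can give, and adjusted p = 0.00015 and 0.00018). Without the 2 mice farthest from the median r was 0.947. The libraries with the highest Tac2, 55.3 and 49.3 CPM, also had the highest summed habenula markers, 855 and 837 CPM, and the library with the lowest Tac2, 0.159 CPM, had 31.7 CPM.

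Tac1 and Penk followed striatal markers in the mPFC, ACC, Nacc and BLA. In the BLA, Tac1 had r = 0.961 (rho 0.936, r = 0.950 without the 2 farthest mice) and Penk r = 0.937 (rho 0.923, r = 0.926 without them), each with a permutation p of 1e-05 and adjusted p of 0.00015 for r. In the mPFC, Penk had r = 0.784 but rho of only 0.439, and r was 0.605 without the 2 farthest mice (permutation p of 1e-05 for r and 0.0042 for rho, adjusted p of 0.00015 and 0.02). In the ACC, Penk had r = 0.954 (rho 0.756) and r = 0.909 without the 2 farthest mice, with the same permutation p and adjusted p. The ACC library of ELA_Veh SocialInteraction mouse 61 held 311 CPM of Penk and 927 CPM of striatal markers, against medians of 23.2 and 156 CPM. The same mouse had the highest mPFC values of Penk, 390 CPM, and of striatal markers, 936 CPM. In the mPFC, Nmb and Trh followed markers of the olfactory bulb (r = 0.959 and 0.924, rho 0.804 and 0.665, r = 0.944 and 0.893 without the 2 farthest mice, permutation p of 1e-05 and adjusted p of 0.00015 for r), and both peaked in ELA_SAFit2 SocialInteraction mouse 79, at 11.2 and 18.5 CPM, with 404 CPM of bulb markers against a median of 18.4. In the Nacc, Cck and Vip followed markers of pyramidal cells (r = 0.950 and 0.903, rho 0.969 and 0.935, r = 0.952 and 0.910 without the 2 farthest mice, permutation p of 1e-05 and adjusted p of 0.00015 for r). Scg2 followed GABAergic markers in the BLA (r = 0.951, rho 0.935, r = 0.941 without the 2 farthest mice, permutation p of 1e-05 and adjusted p of 0.00015 for r). After the mean of each set and condition was removed, r was 0.959 for Tac2 in the DMT, 0.974 for Tac1 in the BLA, 0.955 for Cck in the Nacc and 0.958 for Scg2 in the BLA. For Nts in the ACC and septal markers, r = 0.789 fell to 0.046 without the 2 farthest mice (rho 0.202, permutation p = 0.0015 for r and 0.21 for rho, adjusted p = 0.0076 and 0.36), so that this relation rested on those mice.

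**Figure D3:**
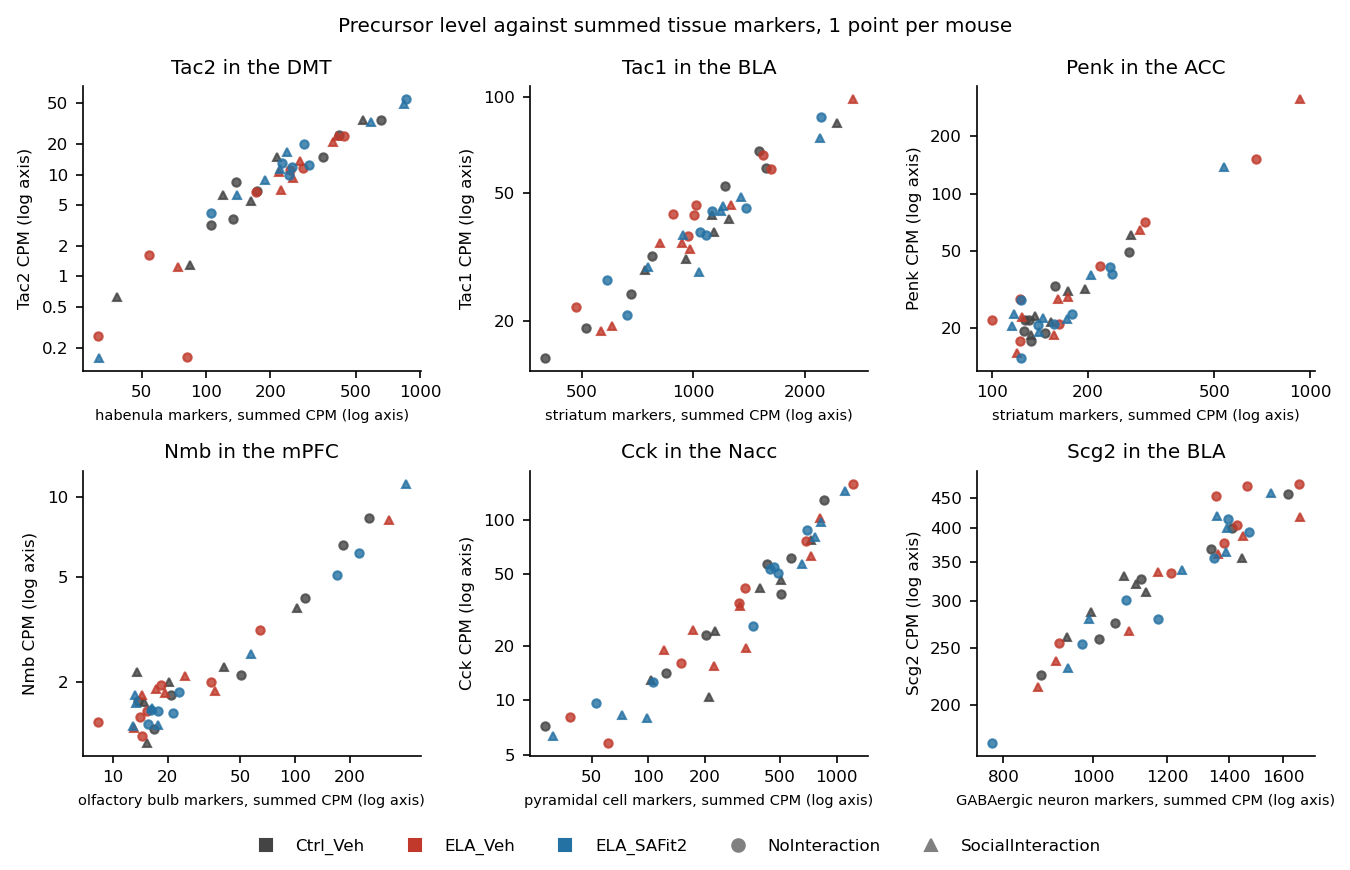
CPM of a precursor gene against the summed CPM of a marker list in 6 examples, 1 point per mouse (n = 41 per panel, both axes logarithmic), coloured by condition, with circles for NoInteraction and triangles for SocialInteraction. The points rise together in each panel, and conditions and sets are mixed along the line.

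Libraries in which summed markers of a neighbouring tissue exceeded 3 times the median of the region and reached at least 20 CPM numbered 12 (mPFC), 6 (ACC), 2 (Nacc), 3 (BLA), 3 (DMT) and 0 (vHipp). Comparisons between sets and conditions were repeated without them. They were also repeated with the summed striatal, GABAergic and olfactory bulb markers as covariates, and both alternatives were chosen after seeing the data.

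The study design has an exposure to an unfamiliar mouse, and the SocialInteraction and NoInteraction sets were compared in each region with the 3 conditions averaged. In the mPFC, 3 of 28 members tested rose, beside 7.27% of all genes called and 4.38% called higher, and none fell. In the ACC, 2 of 26 rose, beside 4.24% of all genes called and 2.6% called higher. These shares are near the background, so that the values belong to the genes named and not to the list. The median log2 fold change of the members was 0.02 in the mPFC and 0.07 in the ACC, against −0.01 and 0.00 over all genes tested.

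Scg2 in the mPFC lay between 153 and 305 CPM with a median of 220 in the 21 NoInteraction mice and between 223 and 433 CPM with a median of 256 in the 20 SocialInteraction mice. The sets overlapped, and the highest SocialInteraction values lay above all NoInteraction values. The highest ELA_SAFit2 value, 433 CPM in mouse 79, and the highest ELA_Veh value, 414 CPM in mouse 61, came from libraries apart. The log2 fold change was 0.31 ± 0.08 (1.24-fold, edgeR adjusted p = 0.0146). Without the 12 mPFC libraries apart it was 0.28 ± 0.07 (edgeR adjusted p = 0.0178). In the ACC, Scg2 ran from 140 to 191 CPM without and from 156 to 317 CPM with interaction (0.20 ± 0.06, adjusted p = 0.0397). That call was lost without the 6 ACC libraries apart (0.15 ± 0.05, adjusted p = 0.0713), without a filter on low counts (adjusted p = 0.073) and in 16 of 41 fits that left out a mouse, with the highest adjusted p of 0.0672 without ELA_SAFit2 SocialInteraction mouse 23.

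Chgb rose in both cortical regions. In the mPFC it went from a mean of 397 ± 33.4 CPM (SD, n = 21) to 432 ± 29.0 (n = 20), a log2 fold change of 0.12 ± 0.03 (edgeR adjusted p = 0.0207). In the ACC it went from 415 ± 27.7 to 462 ± 48.7 CPM, with medians of 415 and 443 (0.16 ± 0.03, edgeR adjusted p = 0.00606). Both calls held in each of 41 fits that left out a mouse, with adjusted p up to 0.0358 in the mPFC and 0.012 in the ACC. The sets overlapped in both regions. Chga, a further granin, was not called in a region.

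Pnoc rose in the mPFC from a mean of 5.77 ± 0.66 CPM (SD, n = 21) to 6.75 ± 1.12 (n = 20), a log2 fold change of 0.22 ± 0.06 (edgeR adjusted p = 0.0169). Without the 12 mPFC libraries apart the value was 0.17 ± 0.05 and the call was lost (edgeR adjusted p = 0.0685). In the ACC the change was 0.08 ± 0.09 (adjusted p = 0.697). In the vHipp it was 0.16 ± 0.05 with an adjusted p of 0.0739 by edgeR and of 0.0309 by DESeq2. With the marker covariates the vHipp value was 0.10 ± 0.05 (edgeR adjusted p = 0.664).

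GABAergic markers, which Scg2 followed in the mPFC (r = 0.781, permutation p of 1e-05, adjusted p = 0.00015), had medians of 612 CPM without and 617 CPM with interaction there, and their highest sums were 1042 and 1262 CPM. With the marker covariates all 5 calls held, at 0.26 ± 0.04 for Scg2 in the mPFC (edgeR adjusted p = 9.78e-05) and 0.25 ± 0.05 for Pnoc (edgeR adjusted p = 0.00269). In that fit Vip in the mPFC and Chgb in the DMT were called as well.

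The mouse numbers alternated between the sets in runs, 5 runs per set of 1 to 7 mice each, and what a run stands for is not given in the sources used here. Run means of Scg2 in the mPFC lay between 200 and 247 CPM without and between 250 and 433 CPM with interaction. The highest, 433 CPM, was a run of 1 mouse, mouse 79, whose mPFC library held 404 CPM of olfactory bulb markers. In the mPFC, run means of Chgb lay between 375 and 404 CPM without and between 377 and 448 CPM with interaction. In the ACC they lay between 391 and 430 CPM and between 405 and 472 CPM. The Chgb ranges overlapped in both regions. With the runs as a random block in limma-voom, a fit added after seeing the data, 4 of the 5 calls held, and Scg2 in the ACC was lost at 0.19 ± 0.06 (limma-voom adjusted p = 0.0512, and 0.0477 without the block). The correlation of mice within a run lay between −0.04 and 0.0035 over the 6 regions, with 1 estimate for all genes of a region. In the mPFC it was −0.0268, and the SE of Scg2 there was 0.0802 without the block and 0.0756 with it. Every run lay in 1 set, and a run effect on a single gene was not modelled. These fits therefore cannot decide whether runs entered the calls.

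Of the 17 processing and granule genes, 2 rose in each cortical region and none fell, and they were the same 2. Of all genes tested, 4.38% were called higher in the mPFC and 2.6% in the ACC. Pcsk1, the convertase that makes the first cuts in many precursors, rose by 0.29 ± 0.04 in the mPFC (edgeR adjusted p = 3.94e-05) and by 0.20 ± 0.06 in the ACC (edgeR adjusted p = 0.0327). The ACC value missed the threshold by limma-voom with and without a block (0.19 ± 0.06, limma-voom adjusted p = 0.0534 without). Vgf, a granin-like precursor induced by neuronal activity and neurotrophins, rose by 0.37 ± 0.07 in the mPFC, from a mean of 162 ± 27.3 to 209 ± 35.0 CPM (SD, n = 21 and 20, edgeR adjusted p = 0.00123). In the ACC it rose by 0.31 ± 0.05 (edgeR adjusted p = 0.000219) and in the DMT by 0.24 ± 0.06 (edgeR adjusted p = 0.0193). Of all genes, 0.915% were called higher in the DMT. Among the receptors, in the ACC 1 of 35 fell, beside 4.24% of all genes called, the VIP receptor Vipr2 (−0.996 ± 0.29, edgeR adjusted p = 0.0424). In the BLA, 1 of 39 fell, beside 1.42% of all genes called, the nociceptin receptor Oprl1 (−0.18 ± 0.04, edgeR adjusted p = 0.0265).

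**Figure D4:**
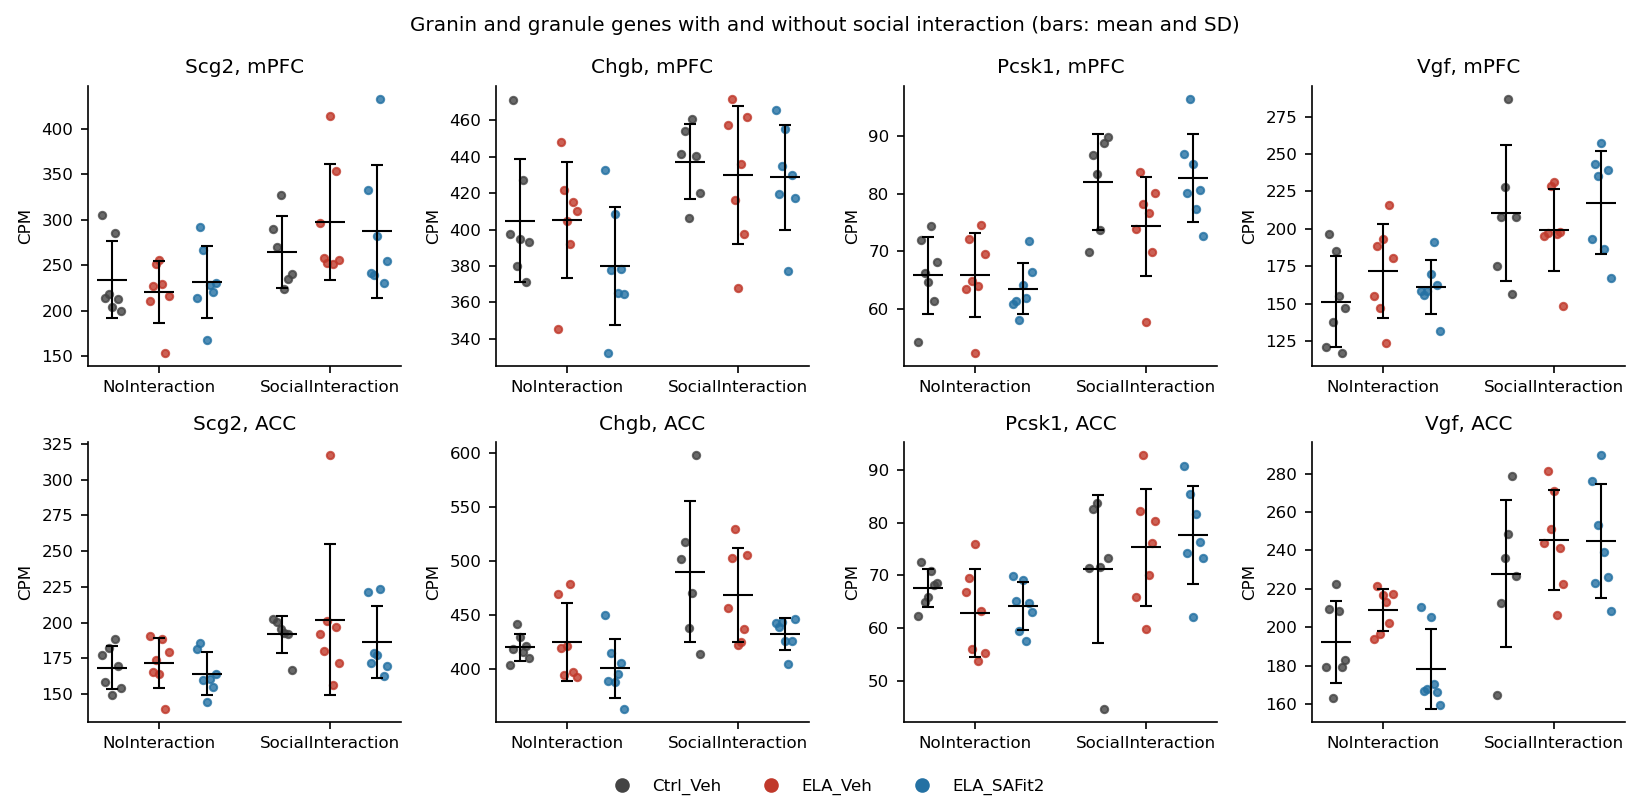
CPM of Scg2, Chgb, Pcsk1 and Vgf in the mPFC (upper row) and ACC (lower row) in each mouse, by set and condition, with the mean and SD as bars (n = 6 or 7 per group, axes do not start at 0). SocialInteraction means lie above NoInteraction means within each condition, and the individual values overlap.

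Within single conditions fewer mice were compared, and no member was called by edgeR in the mPFC or ACC. The mPFC log2 fold change of Scg2 was 0.18 ± 0.14 in Ctrl_Veh, 0.43 ± 0.14 in ELA_Veh and 0.31 ± 0.14 in ELA_SAFit2 mice, and that of Chgb was 0.11 ± 0.06, 0.08 ± 0.06 and 0.17 ± 0.06. DESeq2 called 3 such values, Pnoc in the mPFC of ELA_Veh (0.40, adjusted p = 0.0396), Npy in the ACC of Ctrl_Veh (0.30, adjusted p = 0.047) and Trh in the ACC of ELA_SAFit2 mice (−1.20, adjusted p = 0.0482). In the Nacc, BLA, DMT and vHipp edgeR called 0 members with the conditions averaged, beside 0.0%, 1.42%, 1.53% and 1.2% of all genes called and 0.0%, 0.894%, 0.915% and 0.808% called higher, with 1, 1, 2 and 2 members at an unadjusted p under 0.05. DESeq2 called 1 there, Pnoc in the vHipp. The Nacc comparison was made under the labels of the 12 mismatched libraries. Without them, 15 NoInteraction and 14 SocialInteraction libraries gave 0 calls among 27 members, a smallest edgeR adjusted p of 0.613 and 1 member at an unadjusted p under 0.05, beside 0.032% of all genes called.

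Short stretches of promoter are shown for the genes that rose after interaction and for Sst, in which the cAMP response element, the site bound by the transcription factor CREB, was first described. Promoters of 300 bases (250 before to 50 after the RefSeq start, build GRCm38.p6, an older build than the GRCm39 of the counts) were found for 25 of the 32 members. Both strands were searched for the palindrome TGACGTCA and for the variant TGACGCAA. TGACGTCA was in the promoters of 4 members, Sst, Cartpt, Scg2 and Chgb (16.0% of 25), and of 2.03% of 27025 genes. TGACGCAA was in those of Tac1 and Calca (8.0%) and of 0.562% of all genes. Pcsk1 also held TGACGTCA. Pnoc and Vgf had no entry. Each line gives 30 bases in the direction of transcription with the match in capitals.
Scg2: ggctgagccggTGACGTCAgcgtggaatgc
Chgb: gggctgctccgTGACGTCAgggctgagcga
Pcsk1: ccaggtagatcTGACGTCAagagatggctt
Sst: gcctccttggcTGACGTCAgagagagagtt

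The Scg2 stretch is chr1:79440076-79440105 on the minus strand, and its match begins 68 bases before the start. The Chgb stretch is chr2:132781559-132781588 on the plus strand, 72 bases before it. The Pcsk1 stretch is chr13:75089768-75089797 on the plus strand, 78 bases before it, and the Sst stretch is chr16:23890874-23890903 on the minus strand, 48 bases before it. GENCODE M21 places longer transcripts of Scg2, Chgb and Sst over these positions, which makes them exonic there, while the Pcsk1 stretch lay outside its exons. A match is a description of the letters, and CREB binding was not measured.

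The conditions were compared to ask which precursors differed after early life adversity and whether SAFit2 mice differed from either group. No member was called by edgeR in any of these comparisons. Per region and set there were 36 comparisons and 996 tests of members, with 0 calls, a smallest adjusted p of 0.218 and 71 tests at an unadjusted p under 0.05 (7.13%, beside 4.38% of all tests). The background of calls was 0.000702% of all tests. Over both sets there were 18 comparisons and 498 tests, with 0 calls and 44 at an unadjusted p under 0.05 (8.84%, beside 4.7%), and the background of calls was 0.00386%. DESeq2 called 0 members in either kind of comparison, with 67 and 40 at an unadjusted p under 0.05. The comparisons share samples, since the same Ctrl_Veh and ELA_Veh mice enter more than 1 of them.

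The members with the smallest unadjusted p in each kind of comparison were examined by mouse. Nts in the ACC gave the smallest (ELA_SAFit2 minus ELA_Veh in the SocialInteraction set, −2.58 ± 0.63, unadjusted p = 0.00022 in the edgeR fit over all genes and adjusted p = 0.681). Its 7 ELA_SAFit2 values ran from 0.331 to 0.716 CPM with a median of 0.549, and its ELA_Veh values from 0.250 to 18.7 CPM with a median of 0.569. The value of 18.7 CPM was from mouse 61, the mouse with the highest striatal and septal marker sums in the ACC. Without it the ELA_Veh mean was 0.602 ± 0.32 CPM (SD, n = 6) in place of 3.18.

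Npy in the ACC was lower in ELA_SAFit2 than in Ctrl_Veh mice of the SocialInteraction set by −0.29 ± 0.08 (edgeR adjusted p = 0.363), at medians of 44.3 and 50.8 CPM. The 6 Ctrl_Veh values ran from 47.6 to 77.0 CPM and the 7 ELA_SAFit2 values from 40.2 to 48.9, and they overlapped. Pomc in the Nacc differed between ELA_Veh and Ctrl_Veh mice of that set by −1.42 ± 0.40 (edgeR adjusted p = 1.0), although the medians were 1.025 and 1.019 CPM. A single Ctrl_Veh library, mouse 49, held 12.1 CPM, and the other 5 had a mean of 1.06 ± 0.17 CPM.

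Over both sets, Pmch in the DMT was higher in ELA_SAFit2 than in Ctrl_Veh mice by 1.11 ± 0.31 (edgeR adjusted p = 0.53). Its medians were 0.114, 0.195 and 0.255 CPM in Ctrl_Veh, ELA_Veh and ELA_SAFit2 mice without interaction and 0.0947, 0.119 and 0.168 CPM with it, a handful of reads per library. Grp in the ACC was higher in ELA_SAFit2 than in ELA_Veh mice by 0.33 ± 0.10 (edgeR adjusted p = 0.515), with medians of 9.81 against 8.23 CPM without and 8.83 against 8.02 CPM with interaction. Trh in the BLA was higher in ELA_Veh than in Ctrl_Veh mice by 0.93 ± 0.30 (edgeR adjusted p = 0.988). Without interaction its medians were 1.60 CPM in ELA_Veh and 1.55 CPM in Ctrl_Veh mice, and its highest ELA_Veh value was 12.6 CPM, without which the ELA_Veh mean was 2.14 in place of 3.64 CPM.

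**Figure D5:**
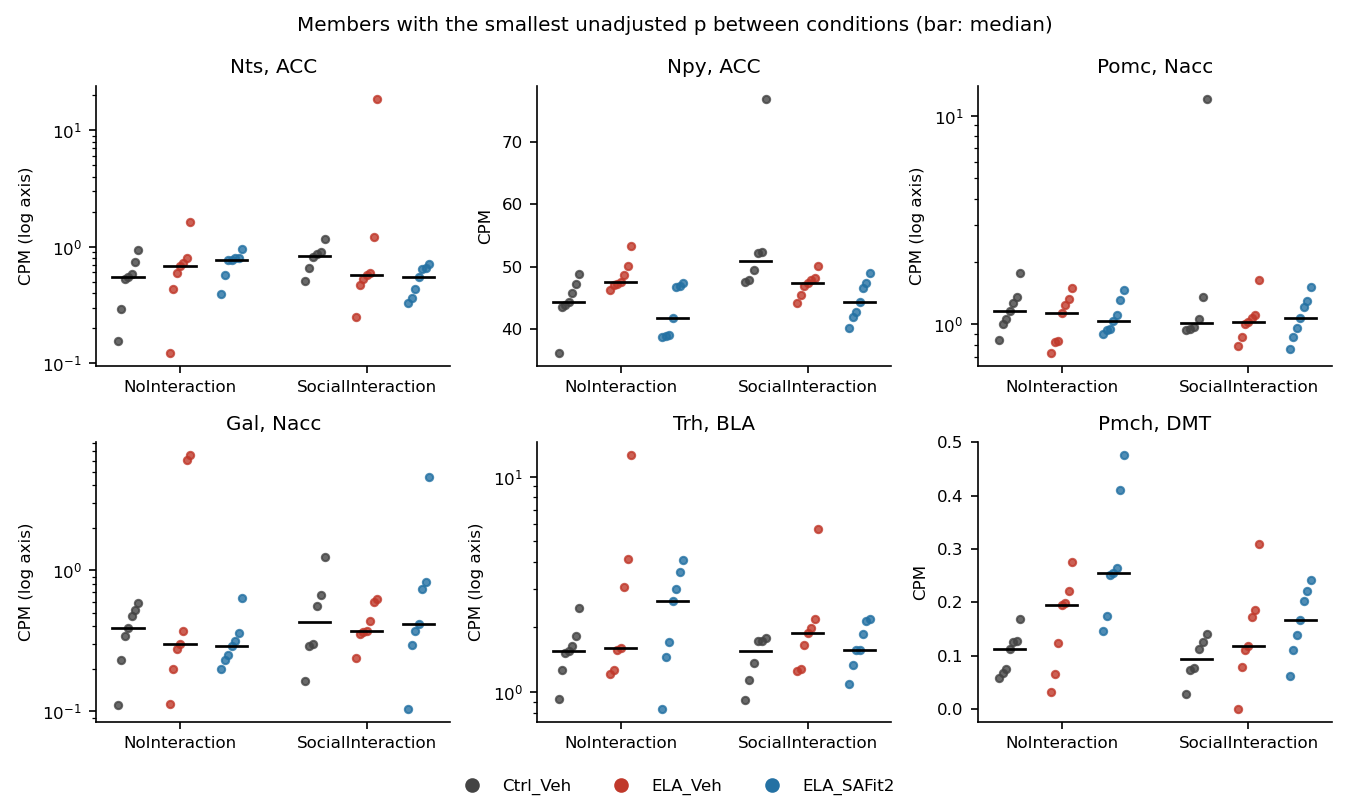
CPM of the members with the smallest unadjusted p between conditions, by set and condition, in each mouse with the median as a bar (n = 6 or 7, log axis where marked). For Nts, Pomc, Gal and Trh the medians of the groups lie close together and single libraries stand far above them, at 18.7, 12.1, 6.59 and 12.6 CPM.

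Whether a condition difference itself changed between the sets was tested as an interaction. None of 498 tests was called by edgeR, with 29 at an unadjusted p under 0.05 (5.82%, beside 3.97% of all tests and a background of calls of 0.00772%). DESeq2 called 0, with 28 at an unadjusted p under 0.05. The smallest p was for Gal in the Nacc (ELA_SAFit2 minus ELA_Veh, SocialInteraction minus NoInteraction, 3.87 ± 1.03, edgeR adjusted p = 0.467, with a range of 0.0863 to 0.964 over the alternatives). Its ELA_Veh values without interaction ran from 0.112 to 6.59 CPM around a median of 0.30, and 2 of 7 mice, 43 and 69, held over 6 CPM. The same libraries had the 2 highest Nacc values of Gnrh1, 3.04 and 2.15 CPM, and ranked 2 and 3 in the sum of hypothalamic markers, at 18.6 and 17.9 CPM against a median of 5.30. The library labelled mouse 69 was among the 12 Nacc libraries that matched another mouse. It matched mouse 61, an ELA_Veh mouse of the SocialInteraction set. Without the 12 libraries the edgeR adjusted p of Gal was 0.809. The part of adjacent tissue in the Gal value was not tested. The next were Pnoc in the Nacc (the same contrast, 1.11 ± 0.33, edgeR adjusted p = 0.499), whose highest value, 9.28 CPM, was also from mouse 69, and Npy in the ACC (ELA_Veh minus Ctrl_Veh, −0.34 ± 0.11, edgeR adjusted p = 0.413).

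Adding up a mouse's 6 libraries before the fit gave 0 calls by edgeR in 6 comparisons per set, 3 over both sets and 3 between sets, with 14, 9 and 5 tests at an unadjusted p under 0.05 (7.29%, 9.38% and 5.21%, beside 4.84%, 5.52% and 4.34% of all tests). The background of calls was 0.0%, 0.00192% and 0.0134%. DESeq2 called 0, with 13, 8 and 5. These sums, and those for social interaction below, were made under the labels. For 12 mice they include a Nacc library that matched another mouse. The smallest p was for Ghrh (ELA_Veh minus Ctrl_Veh without interaction, 0.83 ± 0.23, edgeR adjusted p = 0.534). The next were Pomc (ELA_Veh minus Ctrl_Veh with interaction, −0.52 ± 0.17, edgeR adjusted p = 0.79) and Adcyap1 (ELA_SAFit2 minus ELA_Veh with interaction, 0.24 ± 0.08, edgeR adjusted p = 0.957). Over both sets the smallest were Adcyap1 (ELA_SAFit2 minus ELA_Veh, 0.18 ± 0.06, edgeR adjusted p = 0.519), Prok2 (the same contrast, −0.39 ± 0.13, edgeR adjusted p = 0.608) and Ghrh (ELA_Veh minus Ctrl_Veh, 0.48 ± 0.17, edgeR adjusted p = 0.534). Between sets they were Pomc (−0.52 ± 0.23), Pnoc (0.27 ± 0.13) and Grp (−0.31 ± 0.15), with edgeR adjusted p of at least 0.942. Summed over the 5 regions other than the Nacc, the edgeR adjusted p of Ghrh without interaction was 0.743. Over both sets that sum gave edgeR adjusted p of 0.332 for Adcyap1, 0.983 for Prok2 and 0.36 for Ghrh. For social interaction the summed counts gave 0.08 ± 0.03 for Chgb (edgeR adjusted p = 0.106) and 0.08 ± 0.03 for Scg2 (edgeR adjusted p = 0.118), neither of them called, beside 8.56% of all genes called.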

How the data were processed

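RNA-seq libraries of 6 regions from 41 mice were analysed. The deposited values are expected counts per gene, which the authors made with salmon as the table's name gives and did not scale. STAR, DESeq2 and GRCm39 are named in the submitters' processing notes, and versions and annotation are not given in the sources used here. Of the values, 12.12% were not whole and were rounded. Gene identifiers were matched to GENCODE M21 (52073 of 56691), and 978 more were typed by RefSeq symbol. Exon lengths came from M21. Genes entered a fit if annotated as protein-coding, with 100 or more counts in sum and any count in 6 or more libraries. They were tested with edgeR 4.0.16 in R 4.3.3 (TMM over all libraries, quasi-likelihood test, Benjamini-Hochberg adjustment over all genes tested). DESeq2 1.42.0 and limma-voom (limma 3.58.1) were alternatives.

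Regions were fitted together with the labelled mouse as a block, since by the labels a mouse number marks the same animal in each region. For the 12 mismatched Nacc libraries the block was therefore another mouse than the one they matched. A fit without them was among the alternatives. Sets and conditions were fitted per region with 6 groups. Each library's mouse was checked by correlation with the mean profile of every mouse in the other 5 regions, over the 60 genes that varied most between mice relative to regions. An SE is the log2 fold change over the root of the quasi-likelihood F. Fitted fold changes of the least abundant genes depend on edgeR's prior count. Total counts of 20804219 to 43351397 leave large counting errors in genes under 0.5 CPM. P-values of set and condition comparisons measure the spread between mice. Those of regional comparisons measure the spread between punches that is left after the labelled mouse is fitted. Dams and whole litters were assigned to the conditions, and the labels do not give the litter. Mice of a shared litter, which are not independent, could therefore not be modelled. No library pair was identical. Marker correlations used 100000 permutations (SciPy 1.17.1). The tests were tried on simulated data: in the mPFC social comparison (15812 genes), 80% of genes changed by 0.3 on the log2 scale were called and 0.0384% of unchanged ones. In the regional comparison (3000 genes), 100% changed by 1.5 were called. Each simulation gave all genes the same dispersion and changed only genes with higher counts. Members with a median of at least 0.5 CPM in the mPFC had SDs within groups from 0.112 (Chgb) to 1.017 (Trh) on the log2 scale. The percentages are therefore not the power for the members.

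All members are described, by role. Members called between sets or conditions were named with their values. Where fewer than 3 were called, those with the 3 smallest unadjusted p per kind of comparison were named. Members, lists and tests were chosen with earlier results of these data known. Alternatives were other scalings, filters and tests, sets or libraries left out, marker covariates, mouse numbers as blocks, and medians in place of means.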

Additional observations from a re-analysis of the deposited data

Results flagged for a closer look

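Among the members called between sets or named between conditions, 78 groups of 6 or 7 mice were examined for a library that stood far from the others, by its gap to the nearest one relative to the range of the group. In 14 groups (17.9%) there was such a library. By chance about 1 group in 20 would have one, and the genes were partly named because of such libraries.

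In the ACC, ELA_Veh SocialInteraction mouse 61 held 18.7 CPM of Nts, with the next mouse at 1.2 CPM, and 317.0 CPM of Scg2, with the next at 201.0 CPM. Ctrl_Veh SocialInteraction mouse 89 held 77.0 CPM of Npy, with the next at 52.3 CPM, and 13.8 CPM of Grp, with the next at 9.06 CPM. Ctrl_Veh NoInteraction mouse 33 was low in Npy at 36.1 CPM, with the next at 43.5 CPM. One further Ctrl_Veh SocialInteraction mouse was low in Scg2 at 167.0 CPM, with the next at 192.0 CPM.

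In the Nacc, Ctrl_Veh SocialInteraction mouse 49 held 12.1 CPM of Pomc, with the next at 1.35 CPM, and ELA_Veh SocialInteraction mouse 61 held 1.64 CPM, with the next at 1.1 CPM. Gal was 4.59 CPM in an ELA_SAFit2 SocialInteraction mouse, with the next at 0.826 CPM, and 0.634 CPM in ELA_SAFit2 NoInteraction mouse 15, with the next at 0.362 CPM. Pnoc was 5.96 CPM in Ctrl_Veh SocialInteraction mouse 25, with the next at 4.13 CPM, and low at 3.91 CPM in ELA_SAFit2 SocialInteraction mouse 31, with the next at 4.39 CPM. The Nacc library labelled mouse 61 and the one with 4.59 CPM of Gal matched other mice.

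In the BLA, Trh was 12.6 CPM in ELA_Veh NoInteraction mouse 5, with the next at 4.16 CPM, and 5.73 CPM in ELA_Veh SocialInteraction mouse 21, with the next at 2.17 CPM.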

How the results depend on the processing

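The 75 regional calls gave 600 values under 8 other settings. Of these, 588 stayed past both thresholds, 12 fell below at least 1, for Adcyap1, Nms, Calca, Nts, Gnrh1, Pmch and Trh, and none changed direction. The settings were other scaling, no filter, no mouse block, limma-voom, either set alone, no mismatched Nacc libraries and no libraries apart. Without the mouse block, the counts of regional calls were 8 (mPFC), 13 (ACC), 17 (Nacc), 12 (BLA), 15 (DMT) and 12 (vHipp). Requiring a difference from each of the other 5 regions singly left 0 members (mPFC), 1 (ACC), 7 (Nacc), 2 (BLA), 8 (DMT) and 1 (vHipp). Without the 2-fold minimum, 21 members passed in the mPFC and in the DMT, 27 in the ACC, Nacc and vHipp and 28 in the BLA. Shares of all genes are not given for the counts without the block, against single regions or without the minimum. Those counts are therefore not read as a result about the members. For social interaction, 0 members were called by edgeR within Ctrl_Veh, ELA_Veh or ELA_SAFit2 alone in the mPFC and ACC, which leaves 13 or 14 mice per test. The ACC count fell from 2 to 1 without a filter and without libraries apart. It was 1 to 2 with each mouse left out, and the mPFC count was 3 to 4. One member was called in the vHipp by DESeq2 and in the DMT with marker covariates. No condition comparison gave a called member under any setting run. Conditions and sets share no mouse numbers. Mice of the conditions shared cages, which the labels used here do not give, so neighbouring numbers were tried as random blocks in limma-voom after seeing the data. With blocks of 8 numbers or with runs of numbers the counts for social interaction were 3 in the mPFC and 1 in the ACC. Every such block lay in 1 set, and a block effect on a single gene was not modelled. In the vHipp, 1 member was called with runs and by limma-voom without a block. Depth limits Hcrt, Agrp, Nms, Ghrh and Pmch, and Gal in the mPFC and ACC.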

Other observations

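Medians of Chgb and Scg2 ordered the regions differently. Chgb had its highest median in the vHipp, at 661 CPM, and its lowest in the Nacc, at 245 CPM, while Scg2 had its highest median in the Nacc, at 443 CPM, and its lowest in the ACC, at 177 CPM. In the Nacc, Chgb followed markers of pyramidal cells across mice (r = 0.833, rho = 0.846, permutation p of 1e-05 for both, n = 41, adjusted p = 0.00015 and 0.00018). In the vHipp, Chgb rose with the same markers (r = 0.873) and Scg2 fell with them (r = −0.807), each with a permutation p of 1e-05 and an adjusted p of 0.00015.

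Calca in the DMT did not share the order of Tac2 among the extreme mice. The library with the highest Calca, 17.8 CPM, had the lowest Tac2 of the region, and the library with the lowest Calca, 1.25 CPM, had the highest Tac2, 55.3 CPM, with 855 CPM of habenula markers. The library with the lowest habenula markers, 31.3 CPM, did not follow this order, with 1.84 CPM of Calca and 0.263 CPM of Tac2. These mice were singled out after their values were seen.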
